A study of Mus musculus with 9 samples.

Results

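Fos, Fosb, Fosl2, Jun, Junb, Jund, Atf3, Egr1, Ier2 and Myc were followed liver by liver in 9 female mouse livers. They were chosen by gene symbol, and all 10 symbols matched 1 row each among the 55401 genes of the count table. All 10 were among the 15717 genes left by a filter on low counts, although Fosb, with 3 to 5 counts in every healthy and every miR-22-treated liver, passed through the untreated HCC livers alone.

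The 3 groups had 3 livers each. Healthy livers came from wild-type mice that received neither plasmid nor vector. In both HCC groups, liver tumors were raised by hydrodynamic tail vein injection of myristoylated AKT (EF1α promoter) and mutant NRAS (CAGGS promoter) on transposon plasmids with the Sleeping Beauty transposase, and neither promoter is specific to hepatocytes. At 1 week after the oncogenes, untreated HCC mice received AAV8 blank control and miR-22-treated HCC mice received AAV8 carrying miR-22, each as a single intravenous dose. The labels and the paper's methods give different vector doses. Livers were taken 5 weeks after the oncogenes, which is the 4 weeks after the vector that the labels give. The mice were 6 weeks old at the start, and the labels name the strain as C57BL/6 in the sample fields but FVB/N in the protocol. A difference of untreated HCC from healthy livers therefore combines the oncogenes, the injection and the empty vector, which cannot be told apart here, and in miR-22-treated HCC the vector carried miR-22 as well.

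Most of the members are immediate early genes, which cells transcribe within minutes of a growth signal, a stress or an injury without first making new protein. Fos and Jun proteins pair through leucine zippers to form AP-1, a transcription factor that binds its own short DNA element. Kinases of the RAS pathway reach these genes through serum response factor at CArG boxes and through CREB or ATF proteins at cAMP response elements (CRE). In liver the same genes are known for their fast rise after partial hepatectomy and during tissue handling, and Myc, which pairs with MAX at E-boxes, drives ribosome production and growth.

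The promoter letters are shown for the members that carry these elements, because signals are known to reach immediate early genes through them. The 400 bases before the annotated start (GENCODE vM39, GRCm39) were searched on both strands for 9 of the 10 genes, Egr1 not being analysed here. The CArG box, CC followed by 6 bases of A or T and then GG, lay before Fos and Fosb. It was present in 2.21% of the 21767 windows of that length. Capitals mark the match, and each run reads 5′ to 3′ on the gene's own strand.
Fos, chr12:85520330-85520389, plus strand: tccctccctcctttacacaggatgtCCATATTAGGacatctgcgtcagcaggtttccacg
Fosb, chr7:19044208-19044267, minus strand: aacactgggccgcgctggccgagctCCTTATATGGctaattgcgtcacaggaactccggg

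The full CRE, TGACGTCA, lay before Ier2 and Jund and in 1.87% of all windows. With the fifth of these letters left free, a form that includes the full CRE, it also lay before Jun and in 9.2% of all windows. All 3 windows are shown, with the match in capitals.
Ier2, chr8:85389492-85389551, minus strand: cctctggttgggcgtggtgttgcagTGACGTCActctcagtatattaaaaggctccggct
Jund, chr8:71151360-71151419, plus strand: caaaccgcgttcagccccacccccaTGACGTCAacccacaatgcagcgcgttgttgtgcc
Jun, chr4:94940470-94940529, minus strand: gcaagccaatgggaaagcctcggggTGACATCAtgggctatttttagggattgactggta

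On this build Ier2 (85387960 to 85389483), Junb (85701113 to 85705359) and Jund (71151599 to 71153265) all lie on chromosome 8. The shorter CRE core TGACG is part of the full CRE and was found before 6 of the 9 genes (Fos, Fosb, Jun, Junb, Jund and Ier2) and in 23.1% of all windows. The Fos and Junb windows are printed as examples of members that hold the core without the longer forms.
Fos, chr12:85520573-85520632, plus strand: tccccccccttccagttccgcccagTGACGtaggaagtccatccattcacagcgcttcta
Junb, chr8:85705449-85705508, minus strand: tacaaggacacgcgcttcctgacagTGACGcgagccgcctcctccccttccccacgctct

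The AP-1 element itself, TGANTCA, was in 9.87% of windows and before none of the 9 genes, and the E-box CACGTG was in 8.43% and before none. Fosl2, Atf3 and Myc held none of the motifs searched in this window. A match is a stretch of letters only, and the absence of a match says nothing of the factor.

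**Figure D1:**
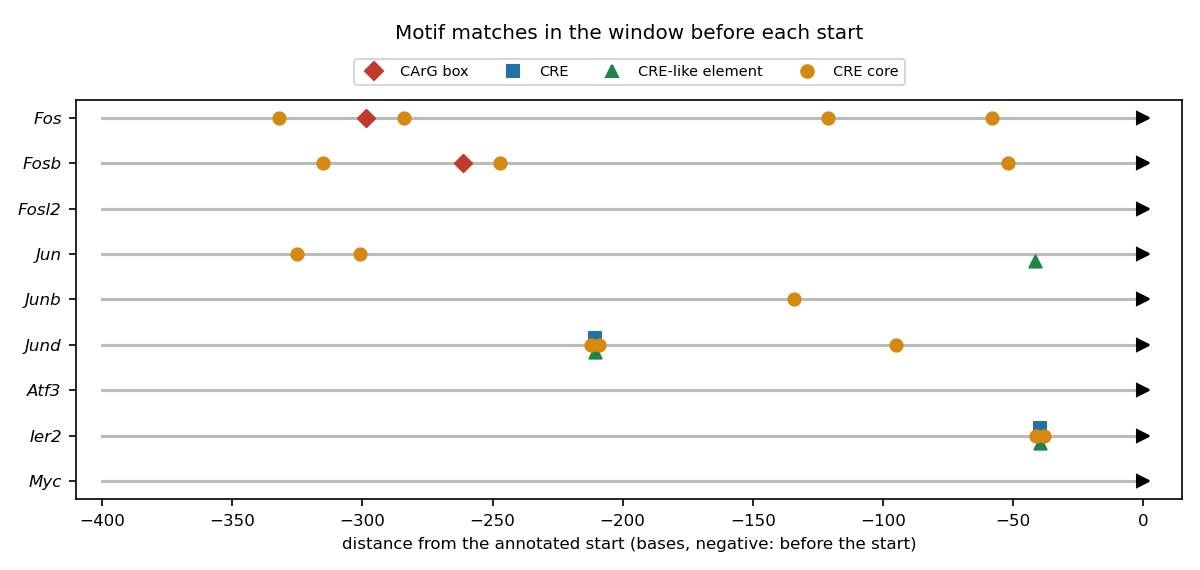
Positions of motif matches (symbols) in the 400 bases before the annotated start of 9 members, with the distance from the start in bases on the x axis. The CArG boxes of Fos and Fosb end 294 and 257 bases before the start, whereas the CRE of Ier2 and the CRE-like element of Jun end 36 and 38 bases before it.

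The treatment was a microRNA, so its sequence and the member that carries its seed match are also shown. Mouse miR-22-3p (RefSeq, GRCm38.p6, chr11:75463772-75463793, plus strand) is printed with its seed, bases 2 to 8, in capitals. A 7-base match to this seed (GGCAGCT) was in the 3′ UTR of 2927 of 20813 genes (14.1%) and of 1 of the 10 members, Fosb (chr7:19036621-19043976, minus strand, GRCm39), where it began at base 2083 of a 2145-base 3′ UTR.
miR-22-3p: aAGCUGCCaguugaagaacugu
Fosb site: tctagcactgGGCAGCTcccctccccc

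Before the comparisons, 1 library has to be set apart. Healthy liver 1 was far above healthy livers 2 and 3 for Fos, Jun, Junb, Egr1 and Ier2, and not for Fosl2, Fosb, Atf3, Jund or Myc. Its ratio to the mean of the other healthy livers was 15.7 for Egr1, 12.3 for Fos, 6.08 for Jun, 5.34 for Junb and 3.31 for Ier2. The ratio was 1.41 for Jund, 1.01 for Atf3, 0.885 for Fosl2, 0.705 for Fosb and 0.57 for Myc. Of all 15717 genes tested, 54 (0.344%) were over 2-fold above both other healthy livers in healthy liver 1, and 5 of these were members. Among 37 other immediate early genes, 3 did the same, namely Zfp36, Btg2 and Nr4a1. In the other 8 livers 13 to 63 genes stood over 2-fold above both livers of their group, with 1 member among them, Myc in healthy liver 3. Healthy liver 1 was close to its group in depth (18258660 counts against 18355692 and 20964551) and in summed hepatocyte markers (137000 CPM, the count scaled to a common library total, against 133000 and 132000). Its summed neutrophil markers were 4.53 CPM against 1.83 and 2.14, its macrophage markers 491 CPM against 387 and 439, and its heat shock genes 4130 CPM against 4280 and 5010. The part of these values in the high liver was not tested. The member counts of each comparison, and the members' results that rest on healthy liver 1, are given with and without it.

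**Figure D2:**
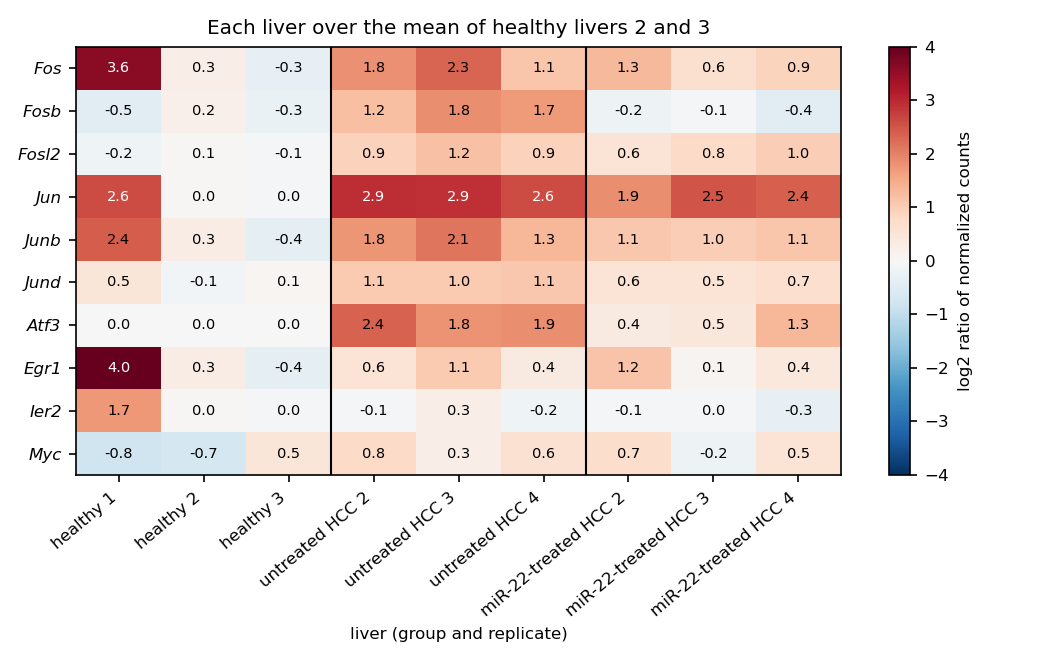
Log2 ratio of each liver's normalized count to the mean of healthy livers 2 and 3, for the 10 genes (rows) and 9 livers (columns), with the value printed in each cell. Healthy liver 1 stands out for Egr1, Fos, Jun, Junb and Ier2, the untreated HCC livers for Jun, Atf3, Junb, Fos and Fosb, and Ier2 is near 0 in all 6 HCC livers.

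Depth ran from 16664659 to 23908392 counts per library, and the hepatocyte markers were abundant in every liver, from 132000 to 137000 CPM in healthy, 56700 to 70400 CPM in untreated HCC and 83100 to 102000 CPM in miR-22-treated livers. Ductal markers, most of whose counts are Spp1, summed to 30 to 41.9, 3330 to 6220 and 1560 to 2700 CPM in the same order, and neutrophil markers to 1.83 to 4.53, 17.8 to 23.6 and 17.9 to 26.5 CPM, with 0 counts of Ly6g in 8 of the 9 livers. Macrophage markers summed to 387 to 491, 433 to 481 and 504 to 539 CPM. By the test used below, untreated HCC against healthy livers had 6 of 7 hepatocyte markers called lower. Called higher were 5 of 6 ductal, all 4 neutrophil (of 9 listed) and 4 of 12 macrophage markers, with 1 macrophage marker lower. S100a8 (0 to 6 raw counts), S100a9 (2 to 20) and Cxcr2 (1 to 3) were near the floor in healthy livers. So were Cldn7 (1 to 11), Trem2 (3 to 9) and Gpnmb (2 to 4). These genes passed the filter through the HCC livers, so any higher call of theirs against healthy livers adds nothing. Among markers of stellate cells 3 of 8 were called higher and 3 lower, of endothelium 3 of 8 lower, of T and NK cells 1 of 8 in each direction and of B cells 1 of 5 lower. With miR-22 against untreated HCC, 2 hepatocyte markers were called higher and 3 ductal markers lower, 2 stellate markers were higher and 1 lower, 1 endothelial and 1 T and NK cell marker were higher, and no neutrophil, macrophage or B cell marker was called. In miR-22-treated against healthy livers, 4 of 4 neutrophil, 5 of 12 macrophage, 4 of 6 ductal and 3 of 8 stellate markers were called higher, as were 1 endothelial and 1 T and NK cell marker, while 2 hepatocyte markers and 1 endothelial marker were lower. Without healthy liver 1, untreated HCC against healthy livers had 6 macrophage markers and 1 endothelial marker called higher and no T and NK or B cell marker lower, and treated against healthy livers had 6 macrophage markers higher, no T and NK cell marker higher and 2 endothelial markers lower. Of all genes tested, 22.7% were called higher and 18.1% lower in untreated HCC against healthy livers. With miR-22 against untreated HCC the shares were 8.32% and 5.47%, and in treated against healthy livers 16.9% and 7.05%. The part of these markers in the results was not tested. In whole liver RNA, a gene's count cannot tell fewer cells of a type from less RNA per cell. The labels do not say more of the replicates than that they are separate samples, so p-values measure the spread between these samples. Counts below are normalized to the mean library size, each group has n = 3 livers given in the order of their replicate numbers (healthy 1 to 3, HCC groups 2 to 4), and adjusted p-values come from edgeR's quasi-likelihood test over all genes tested. A gene was called when its adjusted p was under 0.05 and its fold over 1.5.

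Untreated HCC livers were compared with healthy livers to see which of these genes the RAS and AKT tumors held at a raised level. Atf3, Fosl2, Jund, Fosb, Jun and Myc were called higher, which is 6 of 10 members against 22.7% of all genes tested, and none was called lower against 18.1%. The median log2 fold change was 0.83 over the members and 0.01 over all genes tested. For 5 members, Fosb, Fosl2, Jun, Jund and Atf3, the groups did not overlap, against 65.3% of all genes tested, so that count is no higher than the background. Without healthy liver 1 the call was made for 7 members against 22% of genes: Fos and Junb entered and Myc left, none was called lower against 17.3%, and the median over the members was 1.36. Leaving out healthy liver 2 or 3 instead, so that healthy liver 1 weighs more, gave 4 members called higher against 21.2% of genes and 5 against 21.4%, with 2 called lower each time against 16.9% and 17.4%. The members called lower were Egr1 (-2.36, adjusted p = 0.0249, and -2.40, adjusted p = 0.0123) and Ier2 (-1.08, adjusted p = 0.0263, and -1.11, adjusted p = 0.0176).

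Atf3, a stress-induced bZIP factor that represses or activates with its partner, had the steadiest baseline. Healthy livers held 72.0, 69.7 and 72.5 counts, and untreated HCC livers held 370, 248 and 262. Every tumor liver was above every healthy liver by a wide margin. Atf3 was 4.1-fold higher, a log2 fold change of 2.03 with a standard error (SE) of 0.254 (adjusted p = 2.2e-05), and 2.03 without healthy liver 1.

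Fosl2 encodes Fra-2, a Fos family member that lacks the strong activation domain of Fos. Its counts were 187, 220 and 201 in healthy livers and 397, 480 and 401 in untreated HCC livers. The groups were well separated, and the rise was 1.07 on the log2 scale (SE 0.137, adjusted p = 2.7e-05), or 1.00 without healthy liver 1. Jund, the Jun member that is present in resting cells and is usually seen as a brake on growth, was at 1632, 1081 and 1231 counts in healthy and at 2397, 2379 and 2438 counts in untreated HCC livers. The 3 tumor livers lay within a narrow band (coefficient of variation 1.25%). Jund rose by 0.87 on the log2 scale (SE 0.127, adjusted p = 7.7e-05), or by 1.04 without healthy liver 1.

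Fosb, which is usually silent in liver, was at the edge of detection. Raw counts were 3, 5 and 4 in healthy livers and 14, 23 and 25 in untreated HCC livers, or 3.66, 6.11 and 4.26 against 12.7, 20.0 and 18.1 after normalization. This was a log2 fold change of 1.84 (SE 0.463, adjusted p = 0.00451), and of 1.68 (adjusted p = 0.0255) without healthy liver 1. Since Fosb entered the test through the untreated HCC livers alone, it had to differ, and its call adds nothing to the count.

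Jun, the main AP-1 partner of Fos, showed what healthy liver 1 does to the comparison. Healthy livers held 1433, 243 and 228 counts, and untreated HCC livers 1813, 1770.5 and 1434. All tumor livers were above all healthy livers, but healthy liver 1 was nearly level with the lowest tumor liver. With all livers the log2 fold change was 1.40 (SE 0.521, adjusted p = 0.0357), and without healthy liver 1 it was 2.81 (SE 0.196, adjusted p = 1.2e-06). Leaving out healthy liver 2 or 3 instead gave 1.01 (adjusted p = 0.126) and 0.99 (adjusted p = 0.117), and the call was lost in both. It was also lost without untreated HCC liver 2 or 3, where the log2 fold change stayed at 1.34 (adjusted p = 0.0819) and 1.36 (adjusted p = 0.0784).

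Junb and Fos were not called with all livers and were called without healthy liver 1. Junb, an AP-1 partner that often opposes Jun, held 2453, 561 and 358 counts in healthy and 1559, 2015 and 1149 in untreated HCC livers. Healthy liver 1 was the highest of the 6 and the other healthy livers the lowest. For Junb the log2 fold change was 0.49 (SE 0.503, adjusted p = 0.43) with it and 1.76 (adjusted p = 7.6e-05) without it. Fos held 448, 44.0 and 28.8 counts in healthy and 131, 186 and 79.0 in untreated HCC livers. Again the tumor livers lay between healthy liver 1 and the other healthy livers. The direction for Fos turned with that library, from -0.39 (SE 0.725, adjusted p = 0.67) to 1.84 (SE 0.385, adjusted p = 0.00196).

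Egr1 and Ier2 were not called higher, with or without healthy liver 1. Egr1, a zinc finger factor that responds to ERK signaling, held 3697, 287 and 183 counts in healthy and 346, 492 and 301 in untreated HCC livers. Ier2, a short-lived nuclear protein, held 1986, 619 and 581 counts in healthy and 575, 720 and 531 in untreated HCC livers. Outside healthy liver 1, Ier2 overlapped between the groups, whereas each Egr1 value in tumors exceeded both remaining healthy values. For Egr1 the log2 fold change was -1.87 (adjusted p = 0.0684) with all livers and 0.68 (SE 0.311, adjusted p = 0.0896) without healthy liver 1. For Ier2 it was -0.80 (adjusted p = 0.0776) and 0.01 (SE 0.142, adjusted p = 0.972).

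Myc differed from the AP-1 genes in that another healthy liver was high. Healthy livers held 84.2, 90.5 and 205 counts, and untreated HCC livers 252, 178 and 228. Healthy liver 3 lay inside the range of the tumor livers, so the groups overlapped. Myc had a log2 fold change of 0.78 (SE 0.315) with an adjusted p of 0.04998, at the threshold itself. It was 1.32 (adjusted p = 0.00179) without healthy liver 3, and the call was lost without healthy liver 1 (0.55, adjusted p = 0.186) or healthy liver 2 (0.58, adjusted p = 0.185), as well as without untreated HCC liver 2 (0.68, adjusted p = 0.144) or 4 (0.75, adjusted p = 0.0972).

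**Figure D3:**
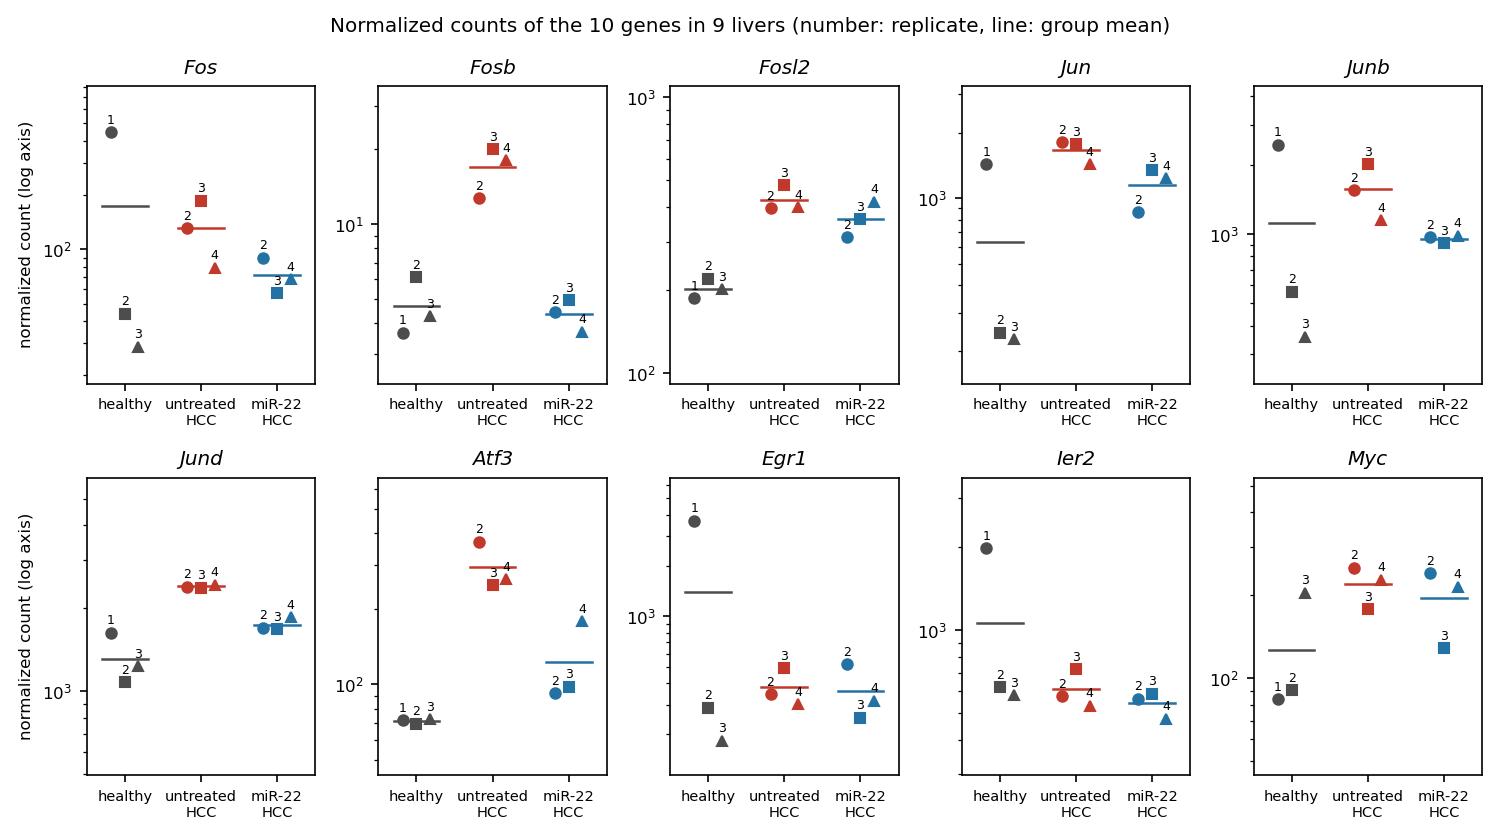
Normalized counts (log axis, range set per gene) of the 10 genes in 3 healthy, 3 untreated HCC and 3 miR-22-treated HCC livers, with the replicate number beside each point and a line at the group mean. Healthy liver 1 is the highest of the 9 for Fos, Junb, Egr1 and Ier2, while Atf3 lies between 69.7 and 72.5 in healthy and between 248 and 370 in untreated HCC livers.

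miR-22-treated livers were compared with untreated HCC livers to ask whether the vector with miR-22 moved these genes. All 10 log2 fold changes were below 0, with a median of -0.5 against 0.002 over all genes tested. Called lower were 2 of 10 members, Atf3 and Fosb, against 5.47% of all genes, and called higher were none against 8.32%. Fosb passed the filter through the untreated HCC livers, so its fall adds nothing to that count, which leaves Atf3. Nor does its fall add to the 10 changes below 0 or to their median. The groups did not overlap for 5 members (Fosb, Jun, Junb, Jund and Atf3), against 39.3% of all genes. Fosb had to differ here too, and without it the count is near that share. Healthy liver 1 is no part of this comparison, but it shares the estimate of spread, and without it 3 members were called lower against 5.44% of genes and none higher against 7.81%, with Junb added.

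Atf3 fell from 370, 248 and 262 counts in untreated HCC to 92.1, 97.7 and 178 counts in miR-22-treated livers. No treated liver reached an untreated one, and treated liver 4 was the highest of its group. This was a log2 fold change of -1.24 (SE 0.239, adjusted p = 0.00324), and between -1.62 and -1.04 when any HCC liver was left out. Fosb fell from 12.7, 20.0 and 18.1 to 4.44, 4.95 and 3.69 normalized counts, which is 4 raw counts in each treated liver. Its log2 fold change was -1.95 (SE 0.463, adjusted p = 0.00979), and the treated livers were back within the range of the healthy ones. Fosb is the member that carries the miR-22 seed match printed above, at a depth of few reads, and no value here bears on whether that site was used.

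Jund and Junb lay lower in every treated liver than in any untreated one. Jund was at 1703, 1678 and 1860 counts in treated against 2379 to 2438 in untreated HCC livers. Its log2 fold change of -0.46 (SE 0.125, adjusted p = 0.0191) passed the test but not the fold of 1.5. Junb was at 972, 913 and 987 counts in treated livers, a narrow band below the untreated range of 1149 to 2015. Its log2 fold change was -0.72 (SE 0.505, adjusted p = 0.337), and with healthy liver 1 out of the shared fit the SE fell to 0.191 and the adjusted p to 0.0207.

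Jun held 864, 1346 and 1239 counts in treated livers, all below the lowest untreated liver at 1434. For Jun the log2 fold change was -0.54 (SE 0.505, adjusted p = 0.485), and without healthy liver 1 the adjusted p was 0.0245 at a fold still under 1.5. Fos held 89.9, 56.9 and 68.3 counts in treated livers against 79.0 to 186 in untreated livers. Treated liver 2 was above the lowest untreated liver, and the log2 fold change of Fos was -0.87 (SE 0.762, adjusted p = 0.452), with an adjusted p of 0.0649 without healthy liver 1.

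Fosl2, Egr1, Ier2 and Myc overlapped between the HCC groups. Fosl2 held 311, 361 and 419 counts in treated livers, a log2 fold change of -0.23 (SE 0.132, adjusted p = 0.242). Egr1 held 523, 251 and 316 counts, Ier2 564, 586 and 476, and Myc 241, 129 and 215. The log2 fold changes of these 3 genes were -0.06, -0.17 and -0.16, with SEs of 0.828, 0.367 and 0.305. With healthy liver 1 out of the shared fit they were -0.06, -0.17 and -0.17, with SEs of 0.267, 0.127 and 0.285 and adjusted p-values of 0.891, 0.372 and 0.717.

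miR-22-treated livers were last compared with healthy livers, which asks what remained different after treatment. This comparison shares its livers with both others and adds no independent sample. Fosl2 and Atf3 were called higher, 2 of 10 members against 16.9% of all genes, and none was called lower against 7.05%. The groups did not overlap for 3 members (Fosl2, Jund and Atf3), against 48.8% of all genes. Without healthy liver 1, Fosl2, Jun and Junb were called higher, 3 members against 15.6% of genes, and none was lower against 6.69%. Without healthy liver 2, 1 member was called higher against 14.6% of genes and 2 lower against 6.12%. Without healthy liver 3, 2 were higher against 14.8% and 2 lower against 6.55%. The members called lower were again Egr1 (-2.42, adjusted p = 0.0386, and -2.46, adjusted p = 0.0202) and Ier2 (-1.25, adjusted p = 0.024, and -1.28, adjusted p = 0.0161).

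Fosl2 stayed above healthy livers by 0.84 on the log2 scale (SE 0.138, adjusted p = 5.3e-04), or by 0.77 without healthy liver 1 (adjusted p = 0.00373). Atf3 was 0.79 above (SE 0.262, adjusted p = 0.0318). The call was lost without treated liver 4 (0.41, adjusted p = 0.18) and without any 1 of the healthy livers (0.76 to 0.79, adjusted p from 0.0772 to 0.089). It was also lost with the replicate number as a block (0.65, adjusted p = 0.202) and when tested against a fold of 1.5 (adjusted p = 0.387). Jund was 0.41 above (adjusted p = 0.0234), under the fold of 1.5. Jun was 0.86 above with all livers (adjusted p = 0.218) and 2.27 above without healthy liver 1 (adjusted p = 1.3e-05). Junb turned from -0.23 (adjusted p = 0.762) to 1.04 (adjusted p = 0.00544), and Fos from -1.26 (adjusted p = 0.222) to 0.97 (adjusted p = 0.0828). Fosb, at -0.11 (SE 0.563, adjusted p = 0.898), and Myc, at 0.62 (SE 0.319, adjusted p = 0.151), were not called. Without healthy liver 3 Myc was called higher, at 1.15 (adjusted p = 0.00884). Egr1 was at -1.93 (adjusted p = 0.0872) and Ier2 at -0.97 (adjusted p = 0.0559) with all livers, and at 0.61 and -0.16 without healthy liver 1.

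**Figure D4:**
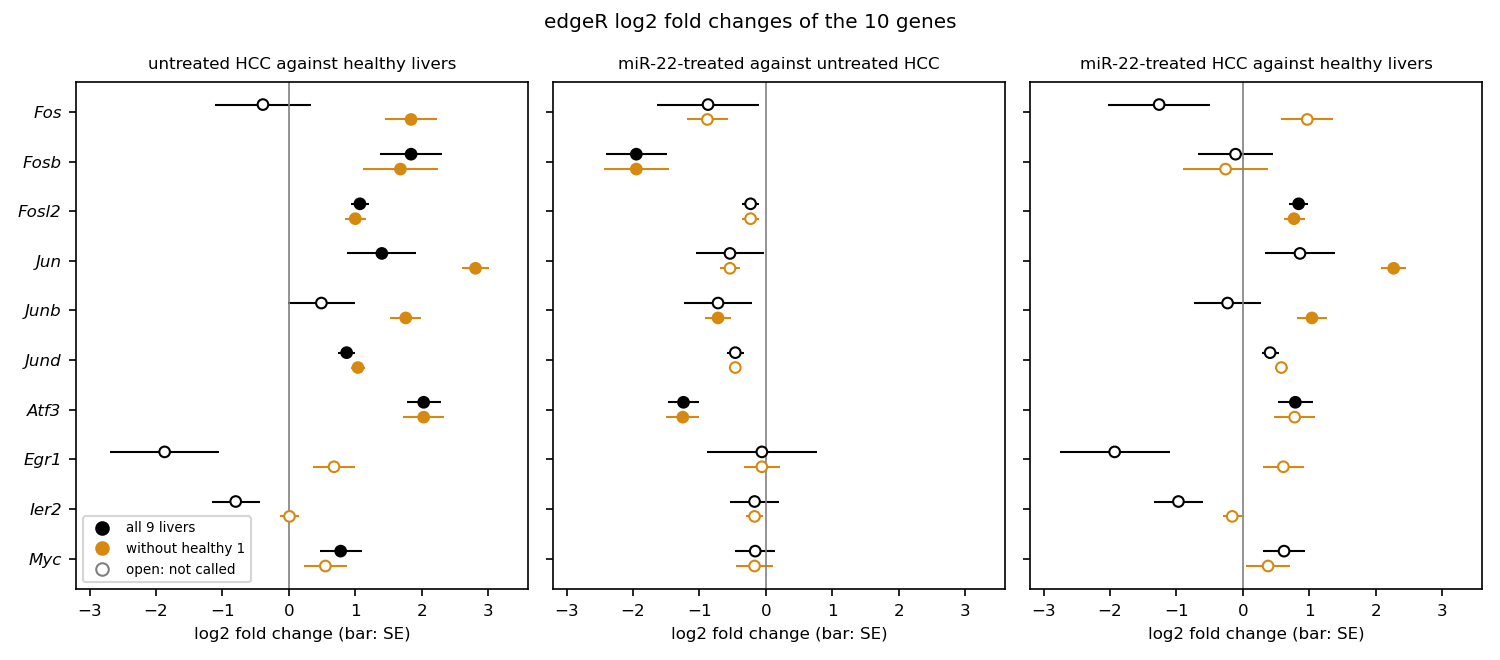
edgeR log2 fold changes (points) with their standard errors (bars) for the 10 genes in the 3 comparisons, with all 9 livers in black and without healthy liver 1 in orange; filled points were called. The orange points of Fos, Jun, Junb, Egr1 and Ier2 lie to the right of the black ones in both comparisons with healthy livers, and the pairs of Fosl2, Atf3 and Fosb nearly coincide.

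Divided by exon length, the members spanned a wide range of levels. In untreated HCC livers Jund had the highest mean at 74.3 ± 0.957 CPM per kilobase (SD, n = 3), followed by Junb at 34.1 ± 9.39, Jun at 27 ± 3.35 and Ier2 at 20.6 ± 3.35. Atf3 (6.19 ± 1.41), Egr1 (4.35 ± 1.14), Myc (4.14 ± 0.71), Fos (2.88 ± 1.17) and Fosl2 (2.11 ± 0.233) came next, and Fosb was last at 0.14 ± 0.0311. The ranges of neighbors in this order overlapped, with the exceptions of Jund and Junb, Ier2 and Atf3, and Fosl2 and Fosb. In miR-22-treated livers Jund (54 ± 3.05 CPM per kilobase), Junb (20.7 ± 0.843), Jun (18.6 ± 4.09) and Ier2 (18.3 ± 1.97) again led, and Atf3 came after Egr1 (4.16 ± 1.63) and Myc (3.68 ± 1.11) at 2.59 ± 1.02. Among healthy livers the order depended on the library: Egr1 was at 42.4 CPM per kilobase in liver 1 and at 3.29 and 2.1 in livers 2 and 3, whereas Jund was at 50.5, 33.4 and 38.1. The library kit did not keep strand, and exons of genes on the other strand overlap 528 bases of Jun (Junos, 3 to 24 counts per library), 877 bases of Jund (Gm11175, 0 counts), and 173 bases of Junb (Prdx2, 1717 to 3863 counts), so reads from those bases cannot be assigned to a strand.

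Likeness of pattern was measured as the Euclidean distance between log2 profiles over the 9 livers, each centered on its own mean, among 13740 genes with at least 1 CPM. The genes closest to Fos outside the members were Nr0b2 (distance 1.96), which encodes the nuclear receptor SHP, Zfp28 (2.01), 4930579G18Rik (2.26), Mx1 (2.26) and Rinl (2.28). Junb (1.25), Egr1 (1.6) and Ier2 (2.22) were closer to Fos than nearly every gene in the table, with 0, 1 and 4 genes nearer, while 10033 genes were nearer than Atf3. The shared feature of these profiles was the high value of healthy liver 1, where Nr0b2 held 1577 counts against 530.5 and 349. The genes closest to Myc were Slc27a3 (0.747), Gm12346 (0.77), Sh3kbp1 (0.776), Galnt2 (0.803) and Card9 (0.862), and no member was as near to Myc as these, Fosl2 at 1.41 being the closest.

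Other genes of the pathway were counted in lists chosen by function. Each count is to be read beside the share of all genes tested. That share was 22.7% called higher and 18.1% lower in untreated HCC against healthy livers. With miR-22 against untreated HCC it was 8.32% and 5.47%, and in treated against healthy livers 16.9% and 7.05%. Without healthy liver 1 the number of genes called in a list moved by over 1.5 times in 2 cases, MYC targets with miR-22 and heat shock genes in treated against healthy livers, both given below. Among 11 other AP-1 and small Maf genes tested, 3 were called higher and 2 lower in untreated HCC against healthy livers. Jdp2, an AP-1 repressor, rose by 2.17 on the log2 scale (SE 0.264, adjusted p = 1.8e-05) and Mafk by 1.49 (SE 0.186, adjusted p = 2.2e-05), whereas Mafg, a small Maf partner of NRF2, had a log2 fold change of -1.18 (SE 0.0958, adjusted p = 6.7e-07). In treated against healthy livers 4 were called higher and 1 lower.

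The 37 other immediate early genes tested gave 15 called higher and 6 lower in untreated HCC, with a median log2 fold change of 0.24. Ccn2, a matrix-associated growth factor, went from 91.1 ± 42.9 to 4338 ± 1117 counts (log2 fold change 5.56, SE 0.308, adjusted p = 4.4e-08). Ier5 rose by 1.84 (adjusted p = 7.1e-08) and Plk2, a stress-responsive kinase, by 2.30 (adjusted p = 2.2e-07). Under miR-22 the list moved both ways, 8 lower and 6 higher. Ier3 went from 233 ± 89.8 to 62.0 ± 15.6 counts (log2 fold change -1.90, adjusted p = 7.7e-04) and Ier5 changed by -0.78 (adjusted p = 4.6e-04), while Plk3 rose by 1.23 (adjusted p = 2.1e-04). In treated against healthy livers 13 were called higher and 1 lower, and 17 and 1 without healthy liver 1. Ier3, at 9.59 to 11.0 counts in healthy livers, passed the filter through the HCC livers. Any call of Ier3 against healthy livers therefore adds nothing.

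Upstream of these genes, 5 of 26 kinases and factors were called higher and 4 lower in untreated HCC, near the background. Mapk3, which encodes ERK1, rose from 601 ± 60.9 to 1585 ± 177 counts (log2 fold change 1.40, SE 0.123, adjusted p = 1.3e-06), Rps6ka3 by 0.93 (adjusted p = 6.9e-06) and Mapk13 by 4.77 (adjusted p = 7.4e-06). In healthy livers Mapk13 was near the floor of the filter, at 4.26 to 13.5 counts. Treatment left 1 called higher, Map2k6 (0.84, adjusted p = 0.0355), and 1 lower, Mapk13 (-1.31, adjusted p = 0.0267), and against healthy livers 2 were called in each direction.

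Textbook AP-1 target genes, mostly matrix proteases and their partners, had a larger share called than the other 6 pathway lists: 10 of 14 tested were higher and 1 lower in untreated HCC (median log2 fold change 2.41), and 6 of 14 were lower and none higher with miR-22 (median -0.72). Spp1, which encodes osteopontin, had a log2 fold change of 7.43 (SE 0.317, adjusted p = 6.9e-09), Mmp12 of 4.37 (adjusted p = 2.2e-08) and Timp1 of 5.79 (adjusted p = 1.4e-07). Timp1 (2.44 to 3.20 counts) and Mmp12 (8.54 to 9.78) were under the filter's minimum of 10 in healthy livers. They passed it through the HCC livers, so their higher calls against healthy livers add nothing to the counts. With miR-22, Ccnd1, which encodes cyclin D1, changed by -0.99 (adjusted p = 3.3e-04), from 6352 ± 605 to 3197 ± 440.5 counts, Mmp14 by -0.85 (adjusted p = 5.6e-04) and Timp1 by -1.26 (adjusted p = 0.00328). In treated against healthy livers, 9 were called higher and 2 lower. Spp1 is also in the ductal marker list and Mmp12 and Mmp9 are made by macrophages and neutrophils, whose marker sums are given above.

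Around Myc, 12 genes of the MAX network gave 2 called higher and 4 lower in untreated HCC. Mycn, a paralog of Myc, went from 12.2 to 19.5 counts in healthy livers to 300 to 436 (log2 fold change 4.33, SE 0.249, adjusted p = 5.2e-08). Mxd3, a repressor that pairs with MAX, rose by 4.60 (adjusted p = 4.5e-06), from 1.88 ± 1.14 counts, and Mlxipl, the glucose sensor ChREBP, had a log2 fold change of -1.67 (adjusted p = 4.1e-06). Mxd3 passed the filter on low counts through the HCC livers, so its calls against healthy livers add nothing to the counts. With miR-22, Mycn changed by -0.84 (adjusted p = 0.00702), Mlxipl by 1.04 (adjusted p = 0.00121) and Mycl by 1.32 (adjusted p = 0.00163), and against healthy livers 2 were called in each direction. Of 26 textbook MYC target genes, 8 were called higher and none lower in untreated HCC, against 22.7% and 18.1% of all genes tested. Their median log2 fold change was 0.18, against 0.01 over all genes tested. The higher genes were led by the cyclin Ccnd2 (2.14, adjusted p = 1.6e-06), the phosphatase Cdc25a (1.72, adjusted p = 2.8e-06) and the nucleolar Nop58 (1.05, adjusted p = 2.9e-06). With miR-22, 2 were lower, Ccnd2 (-1.09, adjusted p = 0.00161) and Nop58 (-0.59, adjusted p = 0.00161), which became 4 lower without healthy liver 1 in the shared fit. Against healthy livers 4 were higher and 1 lower.

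Heat shock genes, which also respond to handling of tissue, were counted beside the members. In untreated HCC 4 of 12 were called higher and 1 lower, with Hspb1 at 2.96 (adjusted p = 1.1e-04), Bag3 at 0.82 (adjusted p = 4.7e-04) and Hspd1 at -0.59 (adjusted p = 5.4e-04). With miR-22, Bag3 alone was called, at -0.76 (adjusted p = 0.00376), and against healthy livers Hspb1 alone, at 2.55 (adjusted p = 9.1e-04), with 1 higher and 1 lower without healthy liver 1.

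**Figure D5:**
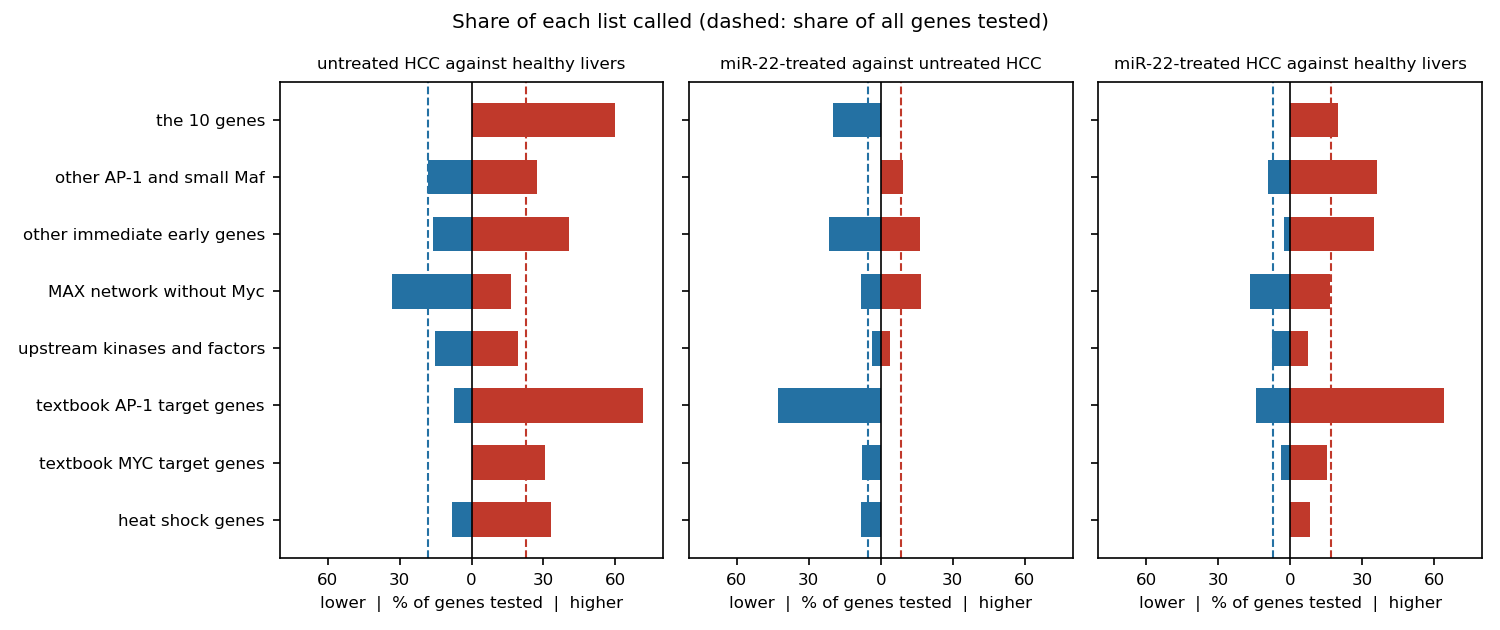
Share of the genes tested in each list that were called higher (right, red) or lower (left, blue) in the 3 comparisons, in percent, with dashed lines at the share of all genes tested. The textbook AP-1 target genes have the longest bar in each comparison, with 10 of 14 higher in untreated HCC and 6 of 14 lower with miR-22, and the upstream kinases and factors stay within or near the dashed lines. Bars of the AP-1 targets against healthy livers count Timp1 and Mmp12, which passed the filter on low counts through the HCC livers.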

How the data were processed

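Whole liver RNA of 9 mice was sequenced from libraries that do not keep strand. The submitters' processing notes name FastQC 0.11.7, Salmon, DESeq2 1.18 and mouse build GRCm39. The deposited counts are whole numbers per gene as the authors made them from Salmon's estimates, not normalized. A second deposited table held the same counts divided by 1 size factor per library and was not used. Counts were tested with edgeR 4.0.16 in R 4.3.3: filterByExpr, TMM factors, a quasi-likelihood fit of 3 groups over all 9 libraries, two-sided tests, Benjamini-Hochberg adjustment over 15717 genes, and calls at an adjusted p under 0.05 and a fold over 1.5. Normalized counts are TMM-scaled CPM times the mean effective library size (19401057). CPM per kilobase used the union of GENCODE vM39 exons, and the marker sums are CPM. Pairs of replicates differed beyond counting noise (chi-square per degree of freedom of 6.13 to 28.4), and no 2 libraries were identical.

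The members and lists were chosen with earlier results of these data known. Genes outside the members were named by rule: for each list and comparison, up to 3 called genes with the smallest p, and the 5 nearest genes of Fos and of Myc. A gene that this rule names is not reported here. In data simulated for untreated HCC against healthy livers, edgeR called 155 of 200 changed genes, 91 of 97 changed 4-fold, and 13 others among 15385 genes. The simulation changed far fewer genes than the 6417 called in the real comparison. It also held no outlying library like healthy liver 1, so its rates need not hold for these data. Alternatives were other normalizations, filters, thresholds and tests (DESeq2 1.42.0, glmTreat), a fit of the compared groups alone, a replicate block and each library left out. Figures were drawn with matplotlib. Motifs and seed matches were searched by exact letters.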

Additional observations from a re-analysis of the deposited data

How the results depend on the processing

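Of the alternatives run for the 10 genes, in the 3 comparisons together, 384 left a gene's direction and call as they were, 27 made a new call in the same direction, 23 lost a call and 18 turned a direction, some of these with a call. In leaving out each library in turn, untreated HCC against healthy livers ranged from -0.91 to 1.84 for Fos, -2.4 to 0.68 for Egr1 and -1.11 to 0.01 for Ier2, with the upper value without healthy liver 1. Treated against untreated HCC ranged from -0.42 to 0.17 for Egr1 and -0.34 to 0.05 for Myc. Treated against healthy livers ranged from -1.78 to 0.97 for Fos, -0.26 to 0.11 for Fosb, -0.67 to 1.04 for Junb and -2.46 to 0.61 for Egr1. Members called in treated against healthy livers ranged from 1 (without treated liver 4, beside 3242 of all genes) to 4 (without healthy liver 3, beside 3453). Of these 4, 2 were higher and 2 lower. With all livers 2 were called, both higher, beside 3772 of all genes. All genes called in treated against untreated HCC ranged from 1433 (without treated liver 3) to 2660 (without treated liver 4), against 2167 with all livers.

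In treated against untreated HCC, 2 members were called beside 2167 of all genes. The members were 4 without a filter (beside 2448), 1 with at least 10 counts in every library (1820) and 1 with DESeq2 (2202). With glmTreat against a fold of 1.5 they were 0 (beside 468), and the adjusted p was 0.0608 for Atf3 and 0.0751 for Fosb. DESeq2 gave no adjusted p for Egr1 in any comparison, nor for Fosb in this one. In treated against healthy livers 7 were called without a filter, 4 higher and 3 lower, beside 4126 of all genes. With glmTreat 0 were called, beside 2010. Without a filter edgeR took every gene to share 1 spread at its level (prior degrees of freedom infinite, against 6.42 with the filter), so those p-values carry no gene's own replicate error. All genes called in treated against untreated HCC were 3777 with no fold threshold and 468 with glmTreat, and in treated against healthy livers 5732 and 2010 beside 3772. Jun in untreated HCC against healthy livers lost its call in 6 of 15 alternatives and Myc in 7 of 15, with adjusted p up to 0.126 and 0.35; the cause was not tested.

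The replicate numbers did not pair the HCC livers: same-numbered livers deviated from their group means with correlations of -0.12 to -0.24, different-numbered ones of -0.01 to 0.13. A replicate block was also fitted in edgeR, in which healthy liver 1 has no partner. With it, untreated HCC against healthy livers gave 2.01 for Fos, 0.85 for Egr1 and 0.1 for Ier2. Egr1 was called higher there (adjusted p = 0.0474), and Fosb lost its call (1.69, adjusted p = 0.0557). Treated against healthy livers gave 1.19 for Fos, 1.17 for Junb and 0.75 for Egr1. The members called were 7, 2 and 3 in the 3 comparisons, beside 5863, 1745 and 3044 of all genes. Depth limits Fosb, at 3 to 25 counts.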

Other observations

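Healthy liver 1 also held high values of genes outside the immediate early group, named here after their values were seen. Gdf15, a stress-induced cytokine, held 141.5 counts there against 19.6 and 25.6 in the other healthy livers, and 310 to 464 in untreated HCC livers. Hes1, a target of Notch, held 533 counts against 166 and 139, and Gadd45a, a growth arrest gene, 654 against 220 and 183. Ttn and Ryr1, genes of striated muscle, held 332 counts against 11 and 89.5, and 75.6 against 4.89 and 12.8. Dnaic1 held 168 against 34.2 and 50.1.

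Some immediate early genes went opposite ways between the HCC groups. Dusp1, a phosphatase that switches off MAP kinases, was also named after its values were seen and lay between 355 and 532 counts with the blank vector and between 777 and 1318 with miR-22 (log2 fold change 1.34, adjusted p = 0.00311, edgeR). Ccn2 lay between 3240 and 5472 counts with the blank vector and between 1721 and 2632 with miR-22 (-1.01, adjusted p = 0.0102).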
